A study of Homo sapiens with 6 samples.

Results

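Transcript levels of the glutathione peroxidases were followed by RNA sequencing in 3 human lines that the labels place in lung cancer, each carrying either a malin vector or an empty vector; malin is the product of NHLRC1. The family was taken as the 8 genes GPX1 to GPX8, matched by symbol. Of these, 7 had a row among the 19903 genes in each library's table, and GPX6 was not analysed here. The family was chosen by the measured FPKM of GPX2, which was lower with malin than with empty vector in A549 in these same libraries. Every GPX2 value, and the difference between vectors in A549, is therefore given as a description with no test.

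The malin group comprised 1 library each of A549, H1299 and a line labelled H2030, and the empty-vector group comprised 1 library of each of the same lines. All cells were labelled as passage 5 and grown near confluence, and nothing in the labels says whether the cultures were separate. The labels do not give the promoter of the vectors or say whether cells were cloned after transfer. A549 and H2030 are lung adenocarcinoma lines, and H1299 comes from a non-small-cell lung carcinoma. Expression was given as FPKM, the number of sequenced fragments scaled to transcript length and library total, so levels of different genes can be compared per length. Differences are on the log2(FPKM+1) scale, which understates the changes of low genes.

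Glutathione peroxidases reduce hydrogen peroxide and organic hydroperoxides to water and alcohols, using glutathione as the electron donor; glutathione reductase then restores the glutathione with NADPH. GPX1, GPX2, GPX3 and GPX4 carry selenocysteine in the active site and need a dedicated translation machinery, whereas GPX5, GPX7 and GPX8 carry cysteine. GPX1 is the broadly expressed enzyme of cytosol and mitochondria, GPX2 is an epithelial form best known from the gut, and GPX3 is secreted into plasma. GPX4 reduces lipid hydroperoxides within membranes and restrains ferroptosis, a death driven by lipid peroxidation. GPX7 and GPX8 reside in the endoplasmic reticulum, where they couple peroxide removal to disulfide formation, and GPX5 is known from the epididymis. GPX2 is also a known target of NRF2 (NFE2L2), the transcription factor that KEAP1 holds in check, and A549 is known to carry a mutant KEAP1.

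The libraries held an estimated 8300000 to 10700000 fragments, and 1 fragment of a gene such as GPX1 was worth 0.09 to 0.116 FPKM. NHLRC1, the introduced gene, stood at 6.82 FPKM with malin and 1.21 FPKM with empty vector in A549, at 119.2 and 2.85 FPKM in H1299, and at 3.69 and 0.18 FPKM in the third line. The pair labelled H2030 went against its label in its headers, where the malin column is named for the embryonic kidney line HEK293T. It also stood apart from the other lines in TM4SF1 and ITGA3, surface proteins at 3.56 FPKM or less in that pair and at 120.8 FPKM or more in the other 4 libraries. Of the 12 lung and epithelial markers listed, 11 had a row; the surfactant genes SFTPB and SFTPC were at 0.11 FPKM or less in all 6 libraries, so these defining lung markers were near absent. The 11 markers summed to 3216 FPKM with malin and 3919 FPKM with empty vector in A549, mostly keratins. The sums were 955.5 and 955.7 FPKM for H1299, and 165 and 188.6 FPKM for the third line. Single markers went both ways. KRT8 and KRT18 were lowest in the third line, at 88.15 FPKM or less against 225.16 FPKM or more elsewhere. NKX2-1 was highest there, with 3.78 FPKM under malin and 1.85 FPKM under empty vector, against 0.77 FPKM or less elsewhere. EPCAM was also highest there, with 5.41 and 8.55 FPKM against 1.75 FPKM or less. The third pair is called the H2030-labelled libraries from here on. In bulk RNA, fewer cells expressing a gene and less RNA per cell cannot be told apart.

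The 250 bases upstream of the RefSeq starts of GPX2 and GPX1 are shown because these 2 genes were near absent in some lines and abundant in others. Sequences are from RefSeq on GRCh38.p14, read 5′ to 3′ on the minus strand that carries both genes, at chr14:64942746-64942995 for GPX2 and chr3:49358354-49358603 for GPX1. GENCODE release 29 starts both genes farther upstream, at 64942905 for GPX2 and 49358600 for GPX1, so 160 bases of the GPX2 window, its marked match included, and 247 bases of the GPX1 window lie inside the genes in that annotation. Capitals mark a match to TGACNNNGC, the core of the antioxidant response element to which NRF2 binds, searched on both strands; no other motif was searched.
GPX2: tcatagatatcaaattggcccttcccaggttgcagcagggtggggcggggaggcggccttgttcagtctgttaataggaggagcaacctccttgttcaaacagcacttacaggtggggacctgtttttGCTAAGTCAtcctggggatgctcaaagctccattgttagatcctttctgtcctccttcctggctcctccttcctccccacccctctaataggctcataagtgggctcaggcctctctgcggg
GPX1: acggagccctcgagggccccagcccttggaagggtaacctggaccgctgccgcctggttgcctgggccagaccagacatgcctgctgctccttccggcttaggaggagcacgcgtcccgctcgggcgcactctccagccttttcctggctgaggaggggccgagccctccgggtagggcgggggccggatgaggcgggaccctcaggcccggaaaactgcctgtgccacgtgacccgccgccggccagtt
The GPX2 match ran from 122 to 114 bases before the RefSeq start and reads TGACTTAGC on the opposite strand. Among the 12 windows of 300 bases (250 before to 50 after a start) that RefSeq gives for the 8 family genes, this was the 1 window with a match, against 13.3% of 35116 windows of all genes. The match is a description of these letters and not evidence of binding. The GPX2 window held 4 CpG dinucleotides and the GPX1 window 23, against a median of 14 over all windows. GPX8 also had 4, GPX3 had 21, GPX7 had 30 and the 3 GPX4 windows had 39 to 43.

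GPX4 was abundant in every library and varied least. It stood at 139.9 FPKM with malin and 142.3 FPKM with empty vector in A549, at 186.2 and 188.8 FPKM in H1299, and at 186.3 and 160.9 FPKM in the H2030-labelled libraries. Its highest value was 1.35 times its lowest. The A549 values lay below all others. GPX4 (Entrez gene 2879) lies on chromosome 19 of GRCh38 from 1103926 to 1106791 on the plus strand in GENCODE release 29.

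GPX1 was as abundant as GPX4 in A549 and in the H2030-labelled libraries, and was nearly absent from H1299. It stood at 154.5 FPKM with malin and 147.1 FPKM with empty vector in A549, and at 174.6 and 129.9 FPKM in the H2030-labelled libraries. In H1299 it stood at 0.99 FPKM with malin and 0.23 FPKM with empty vector, an estimated 10 and 3 fragments. The H1299 libraries did not overlap the other 4. Of 17537 protein-coding genes, GPX1 was the 1 gene below 1 FPKM in both H1299 libraries and at 100 FPKM or more in the other 4 libraries, a count made after its values were seen. The corresponding pattern was met by 0 genes for A549 and by 2 for the H2030-labelled libraries (CD44 and TM4SF1).

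GPX1 (Entrez gene 2876) lies on chromosome 3 from 49357171 to 49358600 on the minus strand, where GENCODE release 29 types it as a polymorphic pseudogene and RefSeq as protein coding. RHOA, the small GTPase gene next to it on the same strand, has its 3′ end at 49359145 and its start at 49412998, and stood at 294.2 to 327.2 FPKM in all 6 libraries, including 305.8 FPKM with malin and 299.4 FPKM with empty vector in H1299. The low GPX1 value in H1299 was thus not shared by this neighbour. GPX1 also has the processed pseudogenes GPX1P1 on chromosome X and GPX1P2 on chromosome 21, which can trade fragments with it, and their part in the values was not tested.

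GPX2 was present in A549 and essentially absent elsewhere. It stood at 32.2 FPKM with malin and 82.8 FPKM with empty vector in A549, at 0.1 and 0.09 FPKM in H1299, and at 0.1 FPKM and a listed 0 in the H2030-labelled libraries. The 3 values above 0 outside A549 each correspond to about 1 fragment, and the listed 0 allows up to 0.35 FPKM for its longest transcript and 0.533 FPKM for its shortest (3 fragments, counting error only). At 30 FPKM or more in both A549 libraries and below 1 FPKM in the other 4 libraries, GPX2 was 1 of 32 such protein-coding genes out of 17537. These thresholds were also set after its values were seen.

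GPX2 (Entrez gene 2877) lies on chromosome 14 from 64939152 to 64942905 on the minus strand and overlaps CHURC1 and the readthrough gene CHURC1-FNTB on the plus strand. The sources used here do not say whether reads were assigned by strand. CHURC1 was at 16.9 FPKM with malin and 18.2 FPKM with empty vector in A549, and CHURC1-FNTB at 9.44 and 8.65 FPKM. In H1299, where GPX2 had about 1 fragment per library, CHURC1 was at 9.62 FPKM with malin and 9.81 FPKM with empty vector, below A549. CHURC1-FNTB was at 8.26 FPKM with malin and 9.5 FPKM with empty vector there, a level close to that in A549. The part of this overlap in the GPX2 values was not tested.

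GPX3, the secreted form, was lower than GPX4 in every library and was ordered by line. It stood at 8.48 FPKM with malin and 9.25 FPKM with empty vector in A549, at 3.65 and 2.94 FPKM in H1299, and at 12.5 and 16.4 FPKM in the H2030-labelled libraries. The 3 lines did not overlap, with H1299 lowest and the H2030-labelled libraries highest. GPX3 (Entrez gene 2878) lies on chromosome 5 from 151020438 to 151028993 on the plus strand.

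Of the members that carry cysteine, GPX8 was expressed in all 3 lines and GPX5 and GPX7 in none at a measurable level. GPX8, the membrane-anchored enzyme of the endoplasmic reticulum, stood at 19.5 FPKM with malin and 17.8 FPKM with empty vector in A549, at 18.9 and 19 FPKM in H1299, and at 10.7 and 14.5 FPKM in the H2030-labelled libraries. Its values in A549 and H1299 overlapped and both lines lay above the H2030-labelled libraries. GPX8 (Entrez gene 493869) lies on chromosome 5 from 55160118 to 55167071 on the plus strand, within CDC20B on the minus strand, which was at 0.21 FPKM or less in every library. GPX7, on chromosome 1, was at 0.09 FPKM, about 1 fragment, in the H1299 malin library and was listed at 0 in the other 5, where a 0 allows up to 0.249 to 0.32 FPKM. GPX5, on chromosome 6, was at 0.1 FPKM in the H2030-labelled empty-vector library and was listed at 0 in the other 5, where a 0 allows up to 0.195 to 0.213 FPKM for its longer transcript and 0.855 to 0.933 FPKM for its shorter one. Of 76 cytosolic ribosomal protein genes, which every cell uses, 0 were listed at 0 in any library.

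**Figure D1:**
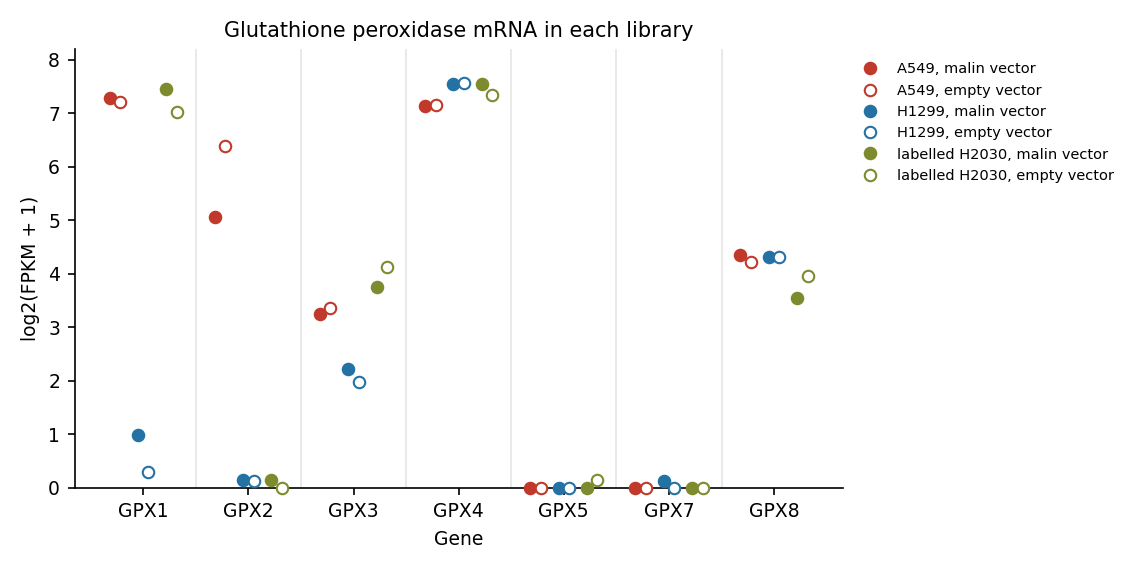
Level of each measured glutathione peroxidase on the log2(FPKM+1) scale (vertical axis) by gene, with filled circles for malin and open circles for empty vector and a colour per line. GPX4 sits between 139.9 and 188.8 FPKM in all 6 libraries, GPX1 drops to 0.99 FPKM or less in H1299, and GPX2 lies above 1 FPKM in A549 only.

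The makeup of the family differed between lines, above all through GPX1 and GPX2. The 7 genes summed to 354.5 FPKM with malin and 399.2 FPKM with empty vector in A549, to 209.9 and 211.1 FPKM in H1299, and to 384.2 and 321.8 FPKM in the H2030-labelled libraries. The H1299 sums lay below the other 4. GPX4 made up 88.7% of the sum with malin and 89.5% with empty vector in H1299, against 35.6% to 50% in the other 4 libraries. GPX2 held 9.09% of the A549 sum with malin and 20.7% with empty vector.

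**Figure D2:**
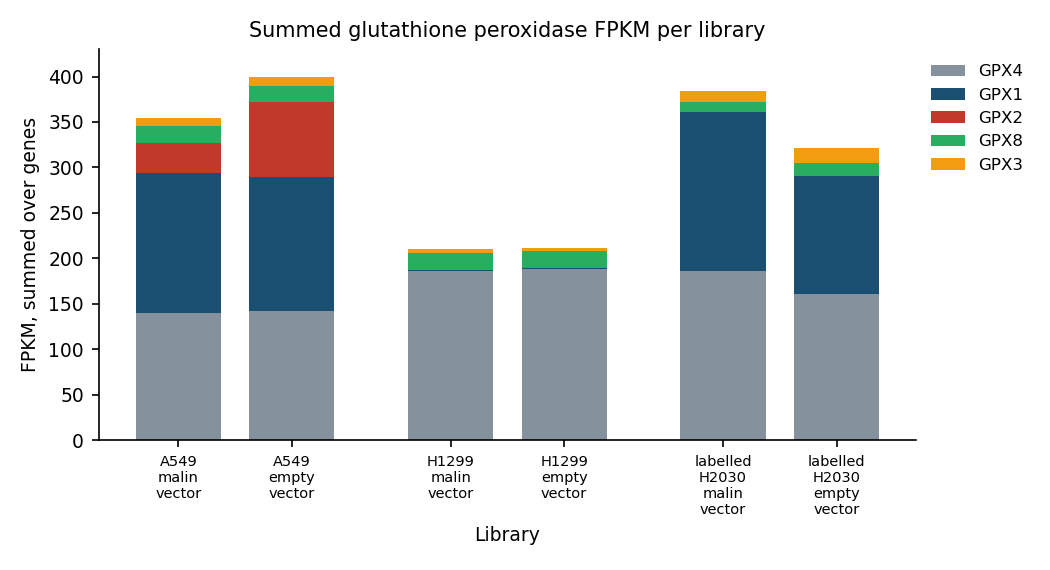
FPKM summed over the glutathione peroxidases (vertical axis) in each library, coloured by gene, with GPX5 and GPX7 too low to draw. The H1299 bars reach 209.9 FPKM with malin and 211.1 FPKM with empty vector and consist mostly of GPX4.

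Within A549 the order was GPX1, GPX4, GPX2, GPX8 and GPX3 in both libraries. GPX1 averaged 150.8 ± 5.2 FPKM and GPX4 141.1 ± 1.7 FPKM there (SD, n = 2 libraries that differ in vector), and their values did not overlap. In the H2030-labelled libraries, GPX4 at 173.6 ± 18 FPKM and GPX1 at 152.3 ± 31.6 FPKM overlapped (SD, n = 2), as did GPX3 at 14.4 ± 2.8 FPKM and GPX8 at 12.6 ± 2.7 FPKM. In H1299 the order was GPX4, GPX8, GPX3 and GPX1, with no overlap between neighbours.

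The lines were compared by limma across 12182 protein-coding genes with a mean of at least 1 FPKM, with the vector in the model. The 5 members GPX1, GPX2, GPX3, GPX4 and GPX8 passed that filter; GPX2 did so through A549 alone and GPX1 through 2 of the lines, so the number of members called is given as a description. GPX2, whose values chose the family, is left without a test, which leaves 4 members. Between A549 and H1299, 61.6% of all genes passed an adjusted p of 0.05, between A549 and the H2030-labelled libraries 67.0%, and between H1299 and those libraries 64.7% (23.8% higher in H1299 and 40.9% lower). In each comparison 3 of the 4 members passed, and nothing is read from that count. The 3 comparisons share libraries, and each line is represented by 2 libraries that may not be separate cultures.

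GPX1 was lower in H1299 than in either other line. The A549 value exceeded that of H1299 by 6.6 ± 0.16 on the log2 scale (SE; limma, adjusted p = 5.18e-06), and H1299 differed from the H2030-labelled libraries by -6.6 ± 0.16 (limma, adjusted p = 7.72e-06). GPX1 passed the filter through the lines in which it was abundant; with no filter the adjusted p in limma was 0.000281 for A549 with H1299 and 0.000316 for H1299 with the H2030-labelled libraries. Between A549 and the H2030-labelled libraries the GPX1 difference was 0.0012, with a 95% interval of -0.39 to 0.39 (limma, adjusted p = 0.997). After median-of-ratios scaling that difference was 0.3925 (limma, adjusted p = 0.0744), so the near equality depends on the scaling.

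GPX3 was higher in A549 than in H1299 by 1.2 ± 0.17 (SE; limma, adjusted p = 0.00185), and lower in H1299 than in the H2030-labelled libraries, with a difference of -1.84 ± 0.17 (SE; limma, adjusted p = 0.000298). A549 also lay below the H2030-labelled libraries, at -0.64 ± 0.17 (SE; limma, adjusted p = 0.019), but that difference was -0.27 after median-of-ratios scaling (limma, adjusted p = 0.183), and missed the threshold without either A549 library (limma, adjusted p = 0.0983 to 0.117). The scaling matters because the median gene differed by -0.29 between A549 and the H2030-labelled libraries, by -0.22 between H1299 and those libraries, and by -0.09 between A549 and H1299.

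GPX8 was higher in A549 by 0.54 ± 0.15 (SE; limma, adjusted p = 0.0219) and in H1299 by 0.57 ± 0.15 (SE; limma, adjusted p = 0.0187), each against the H2030-labelled libraries. The A549 call was lost without the A549 malin library (limma, adjusted p = 0.212) and narrowly without either H1299 library (limma, adjusted p = 0.0513 and 0.0514), and the H1299 call without either H1299 library (limma, adjusted p = 0.0891 and 0.151). The A549 difference was 0.91 after median-of-ratios scaling, and without the H2030-labelled malin library it was 0.31 for A549 and 0.34 for H1299. Between A549 and H1299 its difference was -0.03, with a 95% interval of -0.41 to 0.35, and its sign turned with the scaling (0.07). GPX4 differed by -0.41 ± 0.10 between A549 and H1299 (SE; limma, adjusted p = 0.0131) and by -0.29 ± 0.10 between A549 and the H2030-labelled libraries (SE; limma, adjusted p = 0.038). The second of these equals the shift of the median gene, and after median-of-ratios scaling it was 0.10, the opposite sign. The first was -0.31 after scaling (limma, adjusted p = 0.0537) and missed the threshold without any 1 of the A549 or H1299 libraries (limma, adjusted p = 0.0883 to 0.172). Between H1299 and the H2030-labelled libraries the GPX4 difference was 0.11, with a 95% interval of -0.13 to 0.35; it passed after scaling, at 0.41 (limma, adjusted p = 0.0206), and without the malin library of that pair, at 0.23 (limma, adjusted p = 0.00649).

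Malin and empty vector were compared over the 3 lines with the line as a block. In limma 0 of 12182 genes passed (0%), and 213 (1.75%) had an unadjusted p under 0.05. NHLRC1 itself, higher with malin in all 3 lines, was thus not called. The comparison missed the introduced gene, so a high adjusted p of a member does not show that it was unchanged. Accordingly 0 of the 4 members passed. GPX1 was higher in 3 of 3 malin libraries, with a log2 difference that was 0.07 for A549, 0.69 for H1299 and 0.42 for the third line, a mean of 0.40 ± 0.31 (SD, n = 3; limma, adjusted p = 0.927). The H1299 difference rests on an estimated 10 fragments with malin and 3 with empty vector. Scaled by depth these give a ratio of 3.6, with a 95% exact binomial interval of 0.928 to 20.4, and the ratio of the FPKM values themselves was 4.3. GPX4 averaged 0.06 ± 0.13 (SD, n = 3; limma, adjusted p = 0.931), GPX3 -0.08 ± 0.31 (SD, n = 3; limma, adjusted p = 0.943) and GPX8 -0.10 ± 0.28 (SD, n = 3; limma, adjusted p = 0.927). The signs of these 3 turned when the H2030-labelled libraries were left out, to -0.02 for GPX4, 0.06 for GPX3 and 0.06 for GPX8.

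Within A549, GPX2 was at 32.2 FPKM with malin and 82.8 FPKM with empty vector, a ratio of 0.39 and a log2 difference of -1.33. Depending on which of its 3 transcripts is assumed, this rests on 227 to 347 fragments with malin and 578 to 881 with empty vector, and the widest 95% exact binomial interval of the ratio ran from 0.332 to 0.454. That interval covers counting error only, since there was 1 library of each. Of 12182 genes, 8 (0.0657%) were lower and 6 (0.0493%) higher by at least 2-fold in that pair. The difference chose the family, so nothing is read from its place among them. Outside the 2-fold threshold, the next A549 differences of the members were 0.12 for GPX8 and -0.11 for GPX3.

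Outside A549 the GPX2 level was too low for the difference to be read, at 0.01 in H1299 and 0.14 in the H2030-labelled libraries on the log2 scale. In the H2030-labelled libraries, GPX8 was lower with malin by -0.41, GPX3 by -0.37, and GPX4 higher by 0.21. In that pair 1.60% of genes were lower and 0.484% higher by at least 2-fold, and in H1299 0.0821% differed (0.0246% lower and 0.0575% higher). On this log2(FPKM+1) scale none of the 4 members other than GPX2 differed by 2-fold within any line; the ratio of raw FPKM exceeded 2 for GPX1 in H1299, at the few fragments given above.

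Epithelial markers are given beside the GPX2 difference in A549, from the same 1 library of each vector and without a test. The 8 lung and epithelial markers that passed the filter had a median log2 difference of -0.23, with 5 lower and 1 higher with malin; over all genes 5939 were lower and 6034 higher, with a median of 0. Over the 3 lines 0 of the 8 passed between vectors in limma. KRT8 was at 920.5 FPKM with malin and 1234 FPKM with empty vector, KRT18 at 973.6 and 1334 FPKM, CDH1, the epithelial cadherin, at 1.67 and 3.27 FPKM, and EPCAM at 0.95 and 1.75 FPKM. KRT7 was close to equal, at 1269 FPKM with malin and 1302 FPKM with empty vector, MUC1 was at 1.8 FPKM in both, and KRT19 was at 48.1 FPKM with malin and 42 FPKM with empty vector, while SFTPB and NKX2-1 were listed at 0. The 4 immune markers with a row summed to 4.4 FPKM with malin and 4.36 FPKM with empty vector in A549, with PTPRC at 0.02 FPKM or less. The 6 fibroblast and endothelial markers with a row summed to 1.6 FPKM with malin and 2.01 FPKM with empty vector, with PECAM1 and VWF at 0.02 FPKM or less. The part of these markers in the GPX2 difference was not tested.

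**Figure D3:**
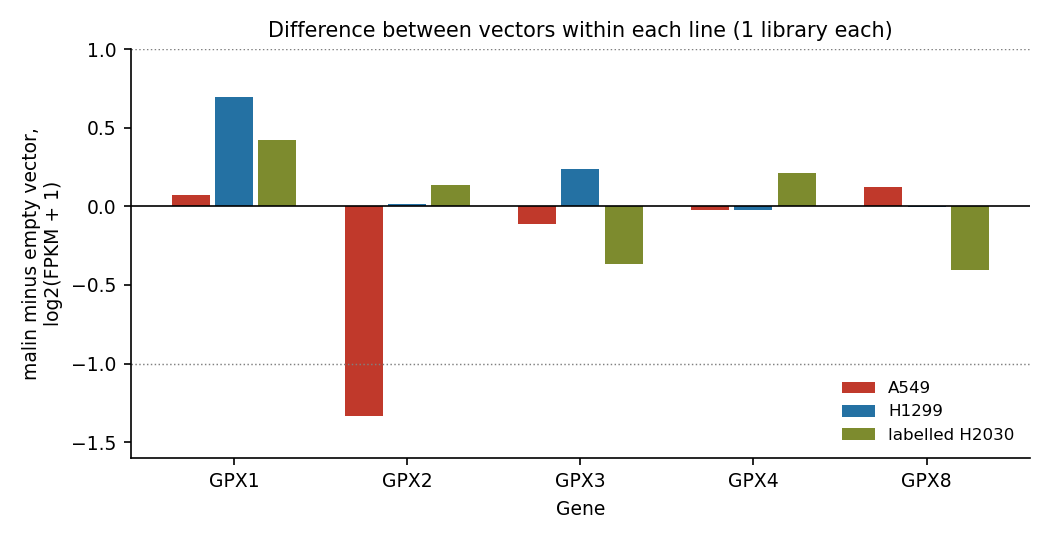
Log2(FPKM+1) difference of malin minus empty vector (vertical axis) for the 5 members above the filter in each line, from 1 library of each vector, with dotted lines at 2-fold. GPX2 in A549 lies at -1.33, and every other bar lies between -0.41 and 0.69.

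Among 8452 genes with a highest level of at least 10 FPKM, those whose log2(FPKM+1) followed GPX2 most closely over the 6 libraries were MMP7, MGAT5B, ELF3, TOR3A and PTGS2 (Pearson's r 0.997 to 0.999). The measure mostly reflects the contrast of A549 with the other lines, and 44 genes reached an r of at least 0.99. MMP7, a matrix metalloproteinase, stood at 7.99 FPKM with malin and 18.6 FPKM with empty vector in A549 and at 0.1 FPKM or less elsewhere. ELF3, an epithelial transcription factor, stood at 35.3 FPKM with malin and 62.6 FPKM with empty vector in A549 and at 0.04 FPKM or less elsewhere. PTGS2, which makes prostaglandins, stood at 10.9 and 15.8 FPKM in A549 and at 0.39 FPKM or less elsewhere. These genes were picked for their likeness to GPX2 in these libraries, so their pattern, the lower values with malin included, is not a result.

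The genes around the family differed between lines too. Of the 9 lists examined the NRF2 list had the largest medians in both comparisons with A549. These lists were chosen with earlier results of these data known, so nothing is read from that rank or from the counts below. Of 18 NRF2 regulators and targets, 13 were higher and 2 lower in A549 than in H1299 (limma; median log2 difference 2.63), and 15 were higher and 1 lower in A549 than in the H2030-labelled libraries (median 2.35). Over all genes 27.2% were higher and 34.5% lower in the first of these comparisons, and 22.1% and 45.0% in the second. AKR1B10, an aldo-keto reductase, stood at 982.4 FPKM with malin and 1144 FPKM with empty vector in A549 and at 0.72 FPKM or less elsewhere, the same on and off pattern as GPX2. AKR1C3 was at 652.1 and 786.2 FPKM in A549 and AKR1C2 at 383.9 and 494.7 FPKM, against 1.42 FPKM or less elsewhere. Between vectors in A549, 12 of the 18 were lower and 6 higher, with a median of -0.04, and 0 reached 2-fold.

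Genes of glutathione and NADPH recycling, glutaredoxins and enzymes of the pentose phosphate pathway included, were also mostly higher in A549. Of 11, 9 were higher and 1 lower in A549 than in H1299 (limma, median 1.86), and likewise 9 and 1 against the H2030-labelled libraries (median 1.82). The shares over all genes were 27.2% higher and 34.5% lower in the first comparison, and 22.1% and 45.0% in the second. GSR, glutathione reductase, was at 135.8 FPKM with malin and 146.9 FPKM with empty vector in A549, at 18 and 19.5 FPKM in H1299, and at 44.5 and 34.8 FPKM in the H2030-labelled libraries. ME1, the cytosolic malic enzyme that makes NADPH, was at 47.9 FPKM with malin and 53.2 FPKM with empty vector in A549 and at 5.33 to 13.2 FPKM in the other 4 libraries. In A549, 9 of the 11 were lower with malin, with a median of -0.14.

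Glutathione synthesis and turnover had 7 of 13 genes higher and 2 lower in A549 than in H1299 (limma, median 0.62). Against the H2030-labelled libraries 7 were higher and 4 lower (median 0.97). The shares over all genes were 27.2% higher and 34.5% lower in the first comparison, and 22.1% and 45.0% in the second. SLC7A11, the cystine importer, stood at 48.2 FPKM with malin and 42.2 FPKM with empty vector in A549, at 2.1 and 2.36 FPKM in H1299, and at 13.8 and 38.5 FPKM in the H2030-labelled libraries. GGT1, which cleaves extracellular glutathione, was at 27 and 30.8 FPKM in A549 and at 0.18 and 0.21 FPKM in H1299. H1299 thus had low levels of both, beside its near-absent GPX1.

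Other genes of peroxide and superoxide handling did not share one pattern. The list holds superoxide dismutases, thioredoxins and thioredoxin reductases beside the enzymes that remove peroxide. Of 15, 8 were higher and 1 lower in A549 than in H1299 (limma, median 0.46). PRDX2, 1 of the 8, was below 1 FPKM in both lines. Against the H2030-labelled libraries 7 were higher and 4 lower (median 0.08). The shares over all genes were 27.2% higher and 34.5% lower in the first comparison, and 22.1% and 45.0% in the second. PRDX2, a cytosolic peroxiredoxin, was at 0.2 FPKM with malin and 0.92 FPKM with empty vector in A549, listed at 0 in both H1299 libraries, and at 241.4 and 227.5 FPKM in the H2030-labelled libraries. In H1299 both GPX1 and PRDX2 were therefore near or at 0, while PRDX1 stood at 634.1 FPKM with malin and 601.9 FPKM with empty vector there, and CAT, catalase, at 14.6 and 11.9 FPKM. TXNRD1, a thioredoxin reductase that is itself a selenoprotein, was at 784.3 and 746 FPKM in A549, at 113.9 and 111.4 FPKM in H1299, and at 62.8 and 72.7 FPKM in the H2030-labelled libraries.

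Genes listed for the selenocysteine machinery, on which GPX1 to GPX4 depend, differed between lines as follows. The list also holds SCLY and LRP8, which do not themselves insert selenocysteine. Of the 10 genes, 2 were higher and 4 lower in A549 than in H1299 (limma; median -0.36), 1 was higher and 8 lower in A549 than in the H2030-labelled libraries (median -1.03), and 0 were higher and 6 lower in H1299 than in those libraries (median -0.48). Over all genes 34.5% were lower in the first of these comparisons, 45.0% in the second and 40.9% in the third. The shares higher were 27.2%, 22.1% and 23.8%, with the shifts of the median gene given above. SCLY and LRP8 were the 2 genes higher in A549 than in H1299, and LRP8 the 1 higher than in the H2030-labelled libraries. EEFSEC, the selenocysteine elongation factor, stood at 5.08 FPKM with malin and 5.25 FPKM with empty vector in A549, at 4.65 and 4.94 FPKM in H1299, and at 11.7 and 17.8 FPKM in the H2030-labelled libraries. Of 17 other selenoprotein genes, 10 were higher and 5 lower in A549 than in H1299 (median 0.45), 4 were higher and 8 lower in A549 than in the H2030-labelled libraries (median -0.19), and 2 were higher and 13 lower in H1299 than in the H2030-labelled libraries (median -0.75). SELENOP, listed as SEPP1 and encoding the plasma selenium carrier, was at 30.9 FPKM with malin and 38 FPKM with empty vector in the H2030-labelled libraries and at 0.79 FPKM or less elsewhere.

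Genes of lipid peroxidation and ferroptosis, the setting in which GPX4 acts, had 5 of 12 higher and 2 lower in A549 than in H1299 (limma, median 0.14). Against the H2030-labelled libraries 7 were higher and 2 lower (median 0.96). Among all genes 27.2% were higher and 34.5% lower in the first comparison, and 22.1% and 45.0% in the second. The same shares apply to the lists below. The ferritin genes led the list, with FTL at 9069 FPKM with malin and 9810 FPKM with empty vector in A549, at 749.7 and 716.2 FPKM in H1299, and at 367 and 507.8 FPKM in the H2030-labelled libraries. Of 12 glutathione transferases, 5 were higher and 1 lower in A549 than in H1299 (median 0.38). Against the H2030-labelled libraries 4 were higher and 6 lower (median -0.52), near the shares over all genes. MGST2, a membrane-bound glutathione transferase with peroxidase activity, stood at 24.6 FPKM in both A549 libraries, at 0.16 FPKM with malin and a listed 0 with empty vector in H1299, and at 33.8 and 40.2 FPKM in the H2030-labelled libraries. Like GPX1, it was near absent from H1299 and present in the other lines. Of 11 genes of oxidative folding in the endoplasmic reticulum, where GPX7 and GPX8 act, 7 were higher and 1 lower in A549 than in H1299 (median 0.53), and 6 higher and 2 lower than in the H2030-labelled libraries (median 0.55). PDIA4, a disulfide isomerase, was at 134.3 and 135.6 FPKM in A549 and at 53.8 and 52.3 FPKM in H1299. Between malin and empty vector 0 genes of any of these lists passed in limma.

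**Figure D4:**
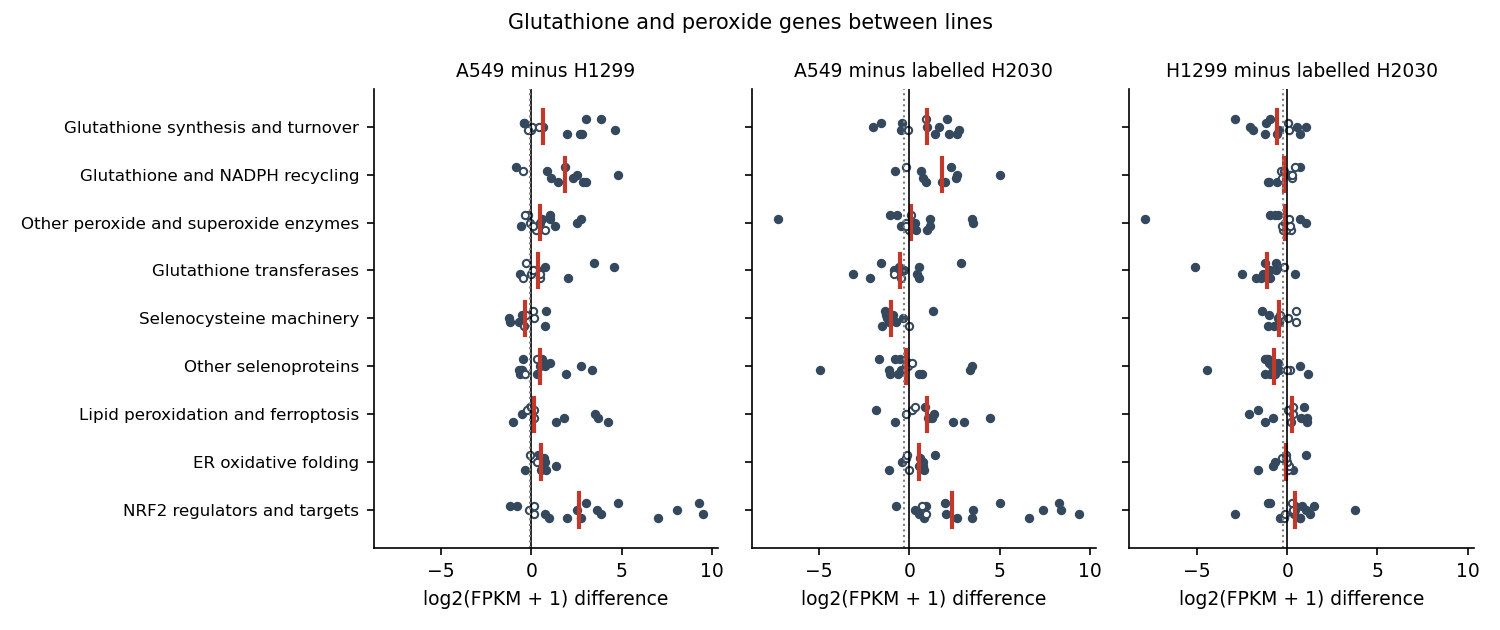
Log2(FPKM+1) difference between lines (horizontal axes) for genes of 9 related lists, 1 point per gene, filled where limma's adjusted p is under 0.05, with red bars at list medians and a dotted line at the median of all genes. The NRF2 list lies farthest right in both comparisons with A549, with medians of 2.63 and 2.35. The lists were chosen with earlier results of these data known.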

How the data were processed

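Per the file headers, the authors deposited FPKM values in 1 table per library. The submitters' processing notes list the trimmer cutadapt, FastQC, the aligner STAR, Cufflinks and hg38 as the build, without versions. FPKM depends on each library's total, so a few abundant genes can shift the rest. Entrez identifiers gave gene types through RefSeq (19770 of 19903 matched, 17537 protein coding), and 35 of 37 blank or date-like symbols were replaced. Protein-coding genes with a mean of at least 1 FPKM entered limma 3.58.1 (R 4.3.3) as log2(FPKM+1), with cell line and vector as terms, an intensity trend in eBayes and Benjamini-Hochberg adjustment over 12182 genes at a threshold of 0.05. The fit left 2 residual degrees of freedom and was first tested on simulated data. With 1 library per line and vector, the residual spread is how much the vector differences vary between lines. P-values are set against that spread, which may be partly technical, and not against a spread between replicate cultures. Within a line there was no replicate and no test. Pairs follow the cell line label. Deviations from the group means correlated at 0.966, 0.965 and 0.929 within A549, H1299 and the H2030-labelled pair. Between lines the correlations were below 0, to which centring on the group means pushes them, so nothing is read from those.

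Fragments were estimated from the steps between low FPKM values, over genes of a single transcript 600 to 2000 bases long, less 100 bases. Of the values used, 80.6% to 82% lay within 0.2 of a whole number, the step having been chosen on the same values. Intervals and floors of 3 fragments cover counting error only. Positions and transcript lengths are from GENCODE release 29. Tables and plots were made with Python 3.11.15 (pandas 2.3.3, numpy 2.4.6, matplotlib 3.10.9, scipy 1.17.1). Genes named beside the members came from the 3 of each list with the widest range of line means and the 5 most like GPX2. RHOA, CHURC1, CHURC1-FNTB, CDC20B, PRDX1, CAT, SCLY, LRP8, CD44, TM4SF1, ITGA3 and the markers were named after their values were seen. Members and lists were chosen with earlier results of these data known. The settings varied were the pseudocount (0.1 or 5 in place of 1), the filter (none, or a mean of at least 5 FPKM), median-of-ratios scaling, the trend, the gene classes, the block and the libraries left out. The comparison of A549 with H1299 without the H2030-labelled libraries was added after the data were seen.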

Additional observations from a re-analysis of the deposited data

Results flagged for a closer look

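Several members differed between vectors in opposite directions in 2 lines. With 1 library of each vector per line these contrasts were not tested, and opposite signs are common by construction. The log2 difference of GPX2 in A549 (-1.33) was apart from that in H1299 (0.01) by -1.35 and from that in the H2030-labelled libraries (0.14) by -1.47. For GPX3 the A549 difference (-0.11) was apart from that in H1299 (0.24) by -0.35, and the H1299 difference from that in the H2030-labelled libraries (-0.37) by 0.61. For GPX4 the differences in A549 and H1299 (-0.02 each) were each apart from that in the H2030-labelled libraries (0.21) by -0.23. For GPX8 the A549 difference (0.12) was apart from that in H1299 (-0.01) by 0.13 and from that in the H2030-labelled libraries (-0.41) by 0.53.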

How the results depend on the processing

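The calls of GPX1 and GPX3 between H1299 and either other line kept their direction and passed under every setting run. With 1 library per line and vector, depth limits GPX2 outside A549, GPX5, GPX7 and GPX1 in H1299. Median-of-ratios scaling turned GPX8 between A549 and H1299 to 0.0685 and GPX4 between A549 and the H2030-labelled libraries to 0.0976, and left 1 of 4 members called in the second comparison. It also raised the share of called genes that were higher in the first line, to 54.9% against 32.9% for A549 with the H2030-labelled libraries and to 53.3% against 36.8% for H1299 with them. GPX4 between A549 and the H2030-labelled libraries also missed the threshold with no filter (limma, adjusted p = 0.054) and with no trend (limma, adjusted p = 0.0778). It missed the threshold as well without any 1 of the A549 or H1299 libraries. The difference was -0.2342 without the A549 malin library and -0.3537 without the A549 empty-vector library.

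Leaving out 1 line at a time gave 0 to 1 called genes between malin and empty vector, with 0.2467 to 0.559 for GPX1, -0.241 to 0.0632 for GPX3, -0.0222 to 0.0952 for GPX4 and -0.2071 to 0.059 for GPX8; GPX1 was 0.7401 under a pseudocount of 0.1 and 0.2255 under 5. Leaving out 1 library at a time gave 4559 to 9391 called genes between A549 and H1299, 5726 to 9214 between A549 and the H2030-labelled libraries, with 0 to 3 members among them, and 5226 to 8980 between H1299 and the H2030-labelled libraries. The lowest counts in the first and last of these came without the H1299 empty-vector library. The log2 differences ran from -0.1933 to 0.1382 for GPX8 between A549 and H1299, from -0.2434 to 0.2459 for GPX1 between A549 and the H2030-labelled libraries, and from -0.0023 to 0.2303 for GPX4 between H1299 and the H2030-labelled libraries. Without the H2030-labelled libraries, 9371 genes and 3 members passed between A549 and H1299.

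Genes past 2-fold within a line numbered 152, 4 and 5 in A549 under a pseudocount of 0.1, a pseudocount of 5 and a mean of at least 5 FPKM, against 14 as reported; 119, 3 and 5 in H1299, against 10; and 544, 65 and 144 in the H2030-labelled libraries, against 254. The fit without the cell line block gave 0 calls between malin and empty vector and 0 genes at an unadjusted p under 0.05, and leaving the vector out gave 7711, 8337 and 8070 calls between lines in the order above; no member's call changed.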
